A study of Mus musculus with 12 samples.

Results

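The Frizzled genes Fzd1 to Fzd10 were taken by gene symbol from RNA-seq data on primary neural stem cells of the mouse, and all 10 of them were found among the 54356 genes of the annotation. The 12 libraries fall into 4 groups of 3. Wild-type cells and cells labelled Chd5-/-, for a chromatin remodelling helicase gene of neural tissue, were each collected 3 h and 48 h after differentiation began. All groups were first grown in DMEM/F-12 with N-2 and the mitogens EGF and FGF2, which were withdrawn when the medium was replaced by neurobasal with B-27. The labels name no animals or cultures behind the replicate numbers and no strain or deleted exon, so p-values measure only the spread between these samples, which may be technical. The question was how the receptor family was expressed, and how its levels differed with genotype and with time.

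Frizzleds are cell-surface receptors with a cysteine-rich outer domain that binds Wnt proteins, a membrane-spanning core and a cytoplasmic tail that recruits Dishevelled. With the co-receptors Lrp5 and Lrp6 they stabilise beta-catenin, and with other partners they drive planar cell polarity and calcium signalling. In the developing brain, Wnt signalling through Frizzleds is known for roles in progenitor proliferation, regional patterning and axon guidance.

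The stretch below is shown because it is the feature that all 10 receptors share outside the rule that chose them. It encodes Lys-Thr-x-x-x-Trp, the site just after the last membrane segment that contacts Dishevelled. The pattern was searched codon by codon on the coding strand of 1 coding transcript a gene (GENCODE M21, genome build GRCm38). It occurred exactly once in each of the 10 coding sequences, while 2.1% of 21630 coding genes held it at all. Each line gives 30 bases, 5′ to 3′, with the Lys, Thr and Trp codons in capitals. The stretch of Fzd8 is not shown here.
Fzd1: tccggcAAGACActgaattccTGGaggaag
Fzd2: tccggcAAGACActgcactcgTGGaggaag
Fzd7: tcgggcAAGACCctgcagtcaTGGcgtcgc
Fzd5: tccggcAAGACTctggagtctTGGcggcgg
Fzd4: tctgccAAAACTcttcacacgTGGcaaaag
Fzd9: agttccAAGACTtttcagactTGGcagagc
Fzd10: acttccAAGACCctgcagtccTGGcaacac
Fzd3: agcaaaAAGACAtgctttgaaTGGgccagt
Fzd6: agcaaaAAGACGtgcacagaaTGGgccggg
The stretches lie at chr5:4755700-4755729 (minus strand) for Fzd1, chr11:102606367-102606396 (plus) for Fzd2 and chr1:59484601-59484630 (plus) for Fzd7. They lie at chr1:64735005-64735034 (minus) for Fzd5, chr7:89408235-89408264 (plus) for Fzd4 and chr5:135249410-135249439 (minus) for Fzd9. Those of Fzd10, Fzd3 and Fzd6 lie at chr5:128602790-128602819 (plus), chr14:65212101-65212130 (minus) and chr15:39033943-39033972 (plus). All are coding exon sequence. The tails that follow differ in length. In Fzd1, Fzd2 and Fzd7, 17 codons remained after the site, against 33 in Fzd4, between 50 and 74 in Fzd10, Fzd9, Fzd5 and Fzd8, 159 in Fzd3 and 206 in Fzd6.

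Aligned over their coding sequences, the receptors fell into the pairs and trios known for the family. Identical bases made up 77.4% of the longer sequence for Fzd2 and Fzd7, 71.8% for Fzd1 and Fzd2, 68.9% for Fzd9 and Fzd10, 65.0% for Fzd5 and Fzd8, and 59.1% for Fzd3 and Fzd6. The least alike pair was Fzd4 with Fzd6, at 43.7%. Reads shared between near copies could affect Fzd1, Fzd2 and Fzd7, of whose 31-base stretches 1.61%, 1.9% and 0.78% also occur in another of these 3 genes. No 31-base stretch of Fzd8, Fzd9 or Fzd10 occurs in another gene of the annotation.

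The libraries held between 14113872 and 18708226 estimated reads. Of these, 3 stand apart from their groups. Wild-type replicate 1 at 3 h had 13.2% of its reads in ribosomal protein genes against 3.72% and 3.59% in the other 2, and 0.532% in mitochondrial genes against 2.17% and 2.29%. Replicate 2 of each genotype at 48 h had summed mitosis gene levels of 3277 and 2970 CPM (a gene's reads scaled to the library's total), against 205 to 215 in the other 4 libraries at 48 h. Receptor results are therefore given for all 12 libraries and for the 9 without these 3. The Chd5 transcript itself was at 3.55 to 4.66 CPM in wild type, against 5.25 to 7.06 CPM in the libraries labelled Chd5-/- at 3 h, and at 5.28 to 7.15 and 2.97 to 5.70 CPM at 48 h. Neither difference passed the test (edgeR quasi-likelihood, adjusted p = 0.257 and 0.467), so the summed Chd5 reads do not show a loss and the label is used as given. All 12 libraries carried neural stem cell markers, at summed levels of 5356 to 9646 CPM over 13 genes such as Nes and Sox2. The defining microglial markers were near 0, at 0.112 to 2.50 CPM summed over 8 genes.

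Levels were compared between genes per length, as TPM, which scales reads to transcript length and library total. Fzd3 needs care on this scale. Its 426-base non-coding transcript Fzd3-201 took 1.35% of the gene's reads but, being short, 6.06 to 10.7 of the 14.3 to 18.3 TPM summed over the gene in wild-type replicates 2 and 3 at 3 h. Fzd3 is therefore placed by its coding transcript Fzd3-202, and the placing was chosen after these values were seen. In wild type at 3 h without replicate 1, Fzd1 (11.4 TPM) and Fzd9 (11.1 TPM) overlapped at the top, and Fzd3-202 followed at 7.58 and 8.24 TPM. Fzd2, Fzd7, Fzd5, Fzd4, Fzd8 and Fzd6 came next in that order, from 6.07 down to 0.916 TPM, and no 2 neighbours among them overlapped. Fzd10 was last at 0.0264 TPM. In replicate 1 the coding Fzd3 transcript was at 0.739 TPM, so with that library the range of Fzd3 overlapped those of all members but Fzd9 and Fzd10.

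In the libraries labelled Chd5-/- at 3 h the order was different. Fzd1 stood first, at 14.5 ± 0.685 TPM (SD, n = 3). Fzd5 (9.08 ± 0.833 TPM) and Fzd10 (8.99 ± 0.760 TPM) overlapped below it and stood above the rest. The coding transcript of Fzd3 followed at 6.36, 7.64 and 7.81 TPM, while the sum over both Fzd3 transcripts was 14.5 ± 2.10 TPM. Fzd9, Fzd2, Fzd4 and Fzd7 followed between 4.28 and 3.79 TPM, each overlapping the next, and Fzd8 and Fzd6 were last at 1.47 and 0.245 TPM. Fzd10 made up 13.6% to 14.4% of the family's summed TPM in these 3 libraries, and 0.0357% to 0.138% in the 3 wild-type libraries at 3 h.

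At 48 h Fzd9 led in both genotypes, with 25.2 and 25.3 TPM in wild-type replicates 1 and 3 and 105 TPM in replicate 2. In the libraries labelled Chd5-/- it was between 18.99 and 64.8 TPM and did not overlap Fzd1, which was between 6.35 and 14.3 TPM, or Fzd3, whose coding transcript was between 4.76 and 9.32 TPM. In wild type the coding transcript of Fzd3 was at 11.6, 11.7 and 11.2 TPM, below every Fzd9 value, and Fzd1 reached 25.3 TPM in replicate 2, above the lowest Fzd9 value. Fzd10 was last in wild type at 48 h, and Fzd6 was last in the libraries labelled Chd5-/-, at 0.198 ± 0.141 TPM. The summed TPM of the 10 receptors, non-coding Fzd3 transcript included, was 58.4 to 76.8 in the 9 libraries, 19.3 in wild-type replicate 1 at 3 h, and 205 and 122 in replicate 2 of wild type and of Chd5-/- at 48 h.

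**Figure D1:**
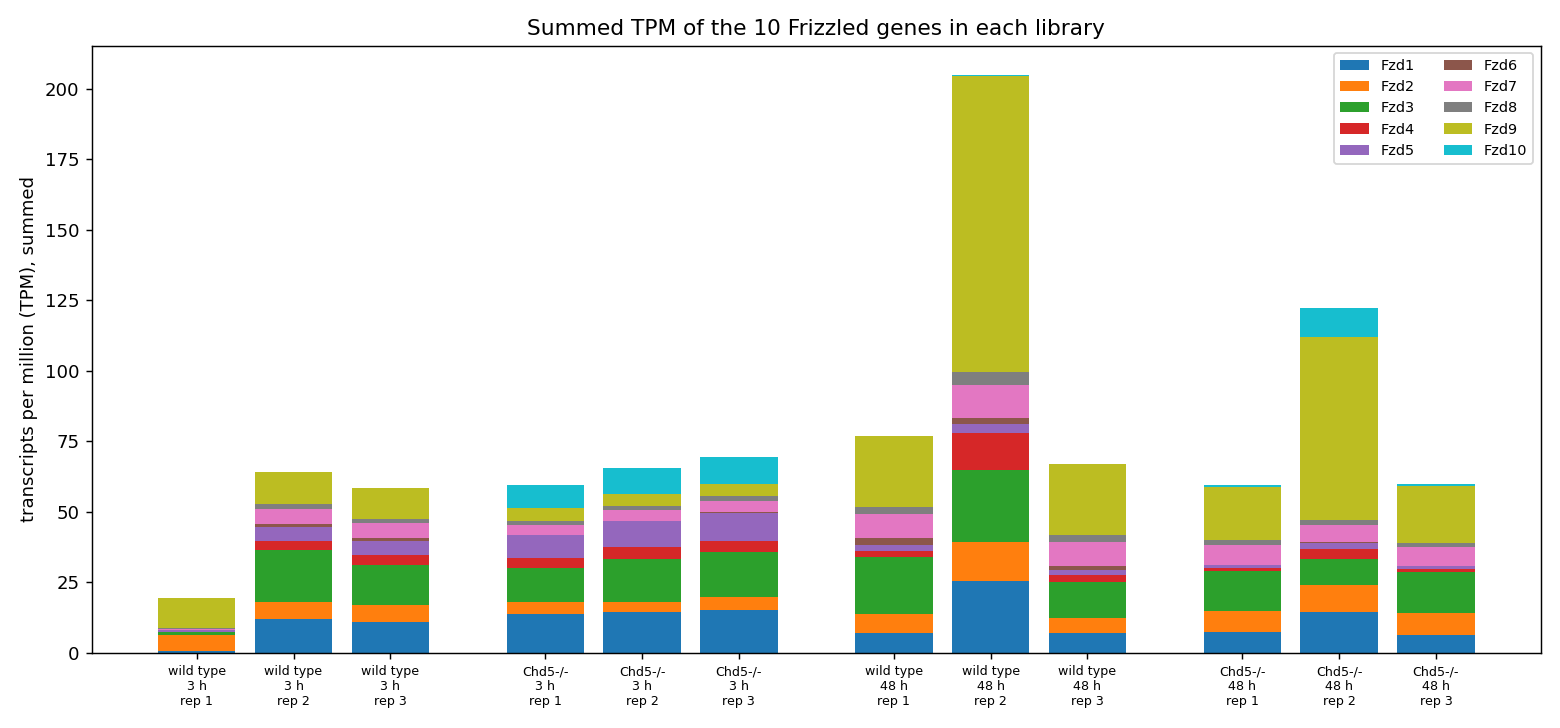
Stacked bars give the TPM (level per transcript length) of each Frizzled gene in each of the 12 libraries, grouped by genotype label and time, with Fzd3 summed over its coding and non-coding transcripts. Fzd10 is a visible band in the 3 libraries labelled Chd5-/- at 3 h and in replicate 2 at 48 h, and Fzd9 makes up 31.9% to 53.1% of the total in the 6 libraries at 48 h.

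At 3 h, the libraries labelled Chd5-/- differed from wild type in 1 of the 10 receptors over 12 libraries. Fzd10 rose from the edge of detection to a level that, per length, overlapped that of Fzd5. The other 9 did not pass at an adjusted p under 0.05 over the 16043 genes tested, of which 6.71% passed, 3.24% higher and 3.48% lower. In all, 5 receptors had an unadjusted p under 0.05 (Fzd2, Fzd5, Fzd6, Fzd9 and Fzd10), beside 3784 of the 16043 genes tested. The median log2 fold change was 0.23 over the 10 receptors and -0.02 over all genes. Groups of 3 did not overlap for 6 of the 10 receptors, with Fzd1, Fzd4, Fzd5 and Fzd10 higher and Fzd2 and Fzd9 lower in the libraries labelled Chd5-/-, beside 45.0% of all tested genes.

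Fzd10 is a Frizzled whose human form is known as an antibody target in synovial sarcoma. The gene lies at chr5:128600844-128604093 (plus strand, GRCm38) and has 1 annotated transcript. The wild-type libraries at 3 h held 4, 3 and 2 Fzd10 reads, or 0.405, 0.171 and 0.111 CPM in replicates 1 to 3. The libraries labelled Chd5-/- held 794, 773 and 861 reads, or 44.4, 48.8 and 49.0 CPM. All 3 of the latter stood far above all 3 wild-type libraries. The log2 fold change was 7.78 ± 1.41 (SE derived from F; edgeR quasi-likelihood, adjusted p = 0.00853), and it was 8.33 ± 0.18 in the 9 libraries. For every edgeR value, the number after ± is the size of the fold change divided by the square root of F. Where reads are few it can be smaller than counting error alone. Counted over the groups, 2428 reads against 9 gave a ratio of 239, with a 95% interval of 126 to 523 that covers counting error only. In the 9 libraries, 2428 reads against 5 gave 337, with an interval of 144 to 1038, so the ± of 0.18 is narrower than counting error. DESeq2 gave no adjusted p for Fzd10.

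At 48 h, wild type held 2, 23 and 6 Fzd10 reads, or 0.122, 1.55 and 0.341 CPM. The libraries labelled Chd5-/- held 43, 652 and 43 reads, or 2.66, 43.5 and 2.71 CPM. Each Chd5-/- library was above each wild-type library, and replicate 2 was the high one in both genotypes. The log2 fold change of 4.61 ± 1.19 did not pass over 12 libraries (edgeR, adjusted p = 0.0751). With the replicate number as a block it was 4.17 ± 0.48 and passed (adjusted p = 0.00946, where the block called 3.13% of genes), and in the 9 libraries it was 3.49 ± 0.33 (adjusted p = 1.89e-06). With no filter on low counts it also passed (adjusted p = 0.0307), beside 1.29% of genes. Leaving out 1 library in turn moved the value between 2.01 (without Chd5-/- replicate 2) and 6.08 (without wild-type replicate 2).

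In the libraries labelled Chd5-/-, replicate 2 at 48 h had 16.2 times the Fzd10 level of the mean of the other 2, and its 43.5 CPM lay just under the 44.4 to 49.0 CPM of the same genotype at 3 h. That library also had summed mitosis gene levels of 2970 CPM, against 208 and 215 CPM in the other 2 and 5227 to 5354 CPM at 3 h. The part of that difference in the Fzd10 level was not tested. Wild-type replicate 2 at 48 h, with mitosis genes at 3277 CPM, had Fzd10 at 1.55 CPM, which is 6.7 times the mean of the other 2 wild-type libraries.

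Markers of other cell types were read beside Fzd10. The fibroblast and smooth muscle list summed to 573 to 607 CPM in the libraries labelled Chd5-/- at 3 h and to 9.34 to 18.7 CPM in the other 9 libraries. Acta2, a smooth muscle actin, made up 566 to 598 CPM of it and Tagln 5.86 to 6.48 CPM, while Pdgfrb and Lum had no read in those 3 libraries and Col3a1, Dcn and Twist1 were each at 0 to 0.279 CPM. The endothelial list summed to 0.968 to 1.62 CPM there and to 3.75 to 7.97 CPM in wild type at 3 h. The neuron list summed to 1204 to 1312 CPM there and to 312 to 704 CPM in wild type at 3 h. Map2 was at 1095 to 1212 against 114 to 490 CPM. Elavl3, at 6.83 to 7.43 against 3.25 to 3.61 CPM, and Elavl4, at 1.88 to 2.46 against 0.203 to 0.832 CPM, were also higher without overlap. Tubb3 was lower, at 89.9 to 98.4 against 119 to 157 CPM, as was Gap43, at 0.171 to 0.505 against 58.5 to 74.0 CPM. Dcx, Rbfox3, Snap25, Syt1 and Stmn2 overlapped. The astrocyte list summed to 617 to 650 CPM there and to 1309 to 1599 CPM in wild type at 3 h, with Sparcl1 at 8.71 to 10.7 against 450 to 1150 CPM. Gfap and Aqp4 were also lower without overlap. Slc1a2 lay the other way, at 35.5 to 41.0 against 6.48 to 15.9 CPM. Aldoc, S100b and Aldh1l1 overlapped, and Gjb6 had no read. The neural stem cell list summed to 9314 to 9646 and 6164 to 8509 CPM, with Fabp7 at 3232 to 3651 against 1291 to 2130 CPM. Sox9, Pax6, Msi1, Slc1a3 and Cdh2 were also higher without overlap. Hes1 was lower, at 16.1 to 17.05 against 37.35 to 58.2 CPM, as was Hes5, at 2.96 to 3.63 against 3.815 to 11.95 CPM. Nes, Sox2, Vim, Notch1 and Prom1 overlapped. The oligodendrocyte and ependymal lists, at 920 to 1010 and 65.1 to 70.3 CPM, lay within or overlapped their wild-type ranges. The part of these genes in the Fzd10 result was not tested, and in bulk samples fewer cells of a type and less RNA per cell cannot be told apart.

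Fzd9, the closest relative of Fzd10 in sequence, is known for expression in the mouse hippocampus, and its human gene lies in the region deleted in Williams syndrome. It was at 108, 42.4 and 41.6 CPM in wild type at 3 h, against 17.2, 14.8 and 16.2 CPM in the libraries labelled Chd5-/-. The groups did not overlap, with every wild-type library higher, which is the opposite side from Fzd10. The log2 fold change of -2.0 ± 0.73 did not pass over 12 libraries (edgeR, adjusted p = 0.138). It was -1.38 ± 0.06 in the 9 libraries (adjusted p = 6.33e-10). DESeq2 (adjusted p = 0.0333) and the replicate block (adjusted p = 0.0140) called Fzd9 over 12 libraries, where they called 13.6% and 8.63% of genes. Same-numbered libraries did not deviate together at 3 h (r = 0.15, 0.08 and 0.05), so the block call there rests on no pairing seen in the data.

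At 48 h Fzd9 was at 68.6, 340 and 69.2 CPM in wild type, against 52.6, 196 and 54.9 CPM in the libraries labelled Chd5-/-. Replicate 2 was 4.93 and 3.64 times the mean of the other 2. The groups overlapped, although at each replicate number the Chd5-/- library was the lower one. The difference was -0.66 ± 0.71 (adjusted p = 0.920, 95% interval -2.04 to 0.73) over 12 libraries and -0.35 ± 0.05 in the 9 libraries (adjusted p = 0.000141). The genotype by time interaction in the 9 libraries was 1.04 ± 0.08 (adjusted p = 4.92e-07), but it did not pass over 12 libraries.

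**Figure D2:**
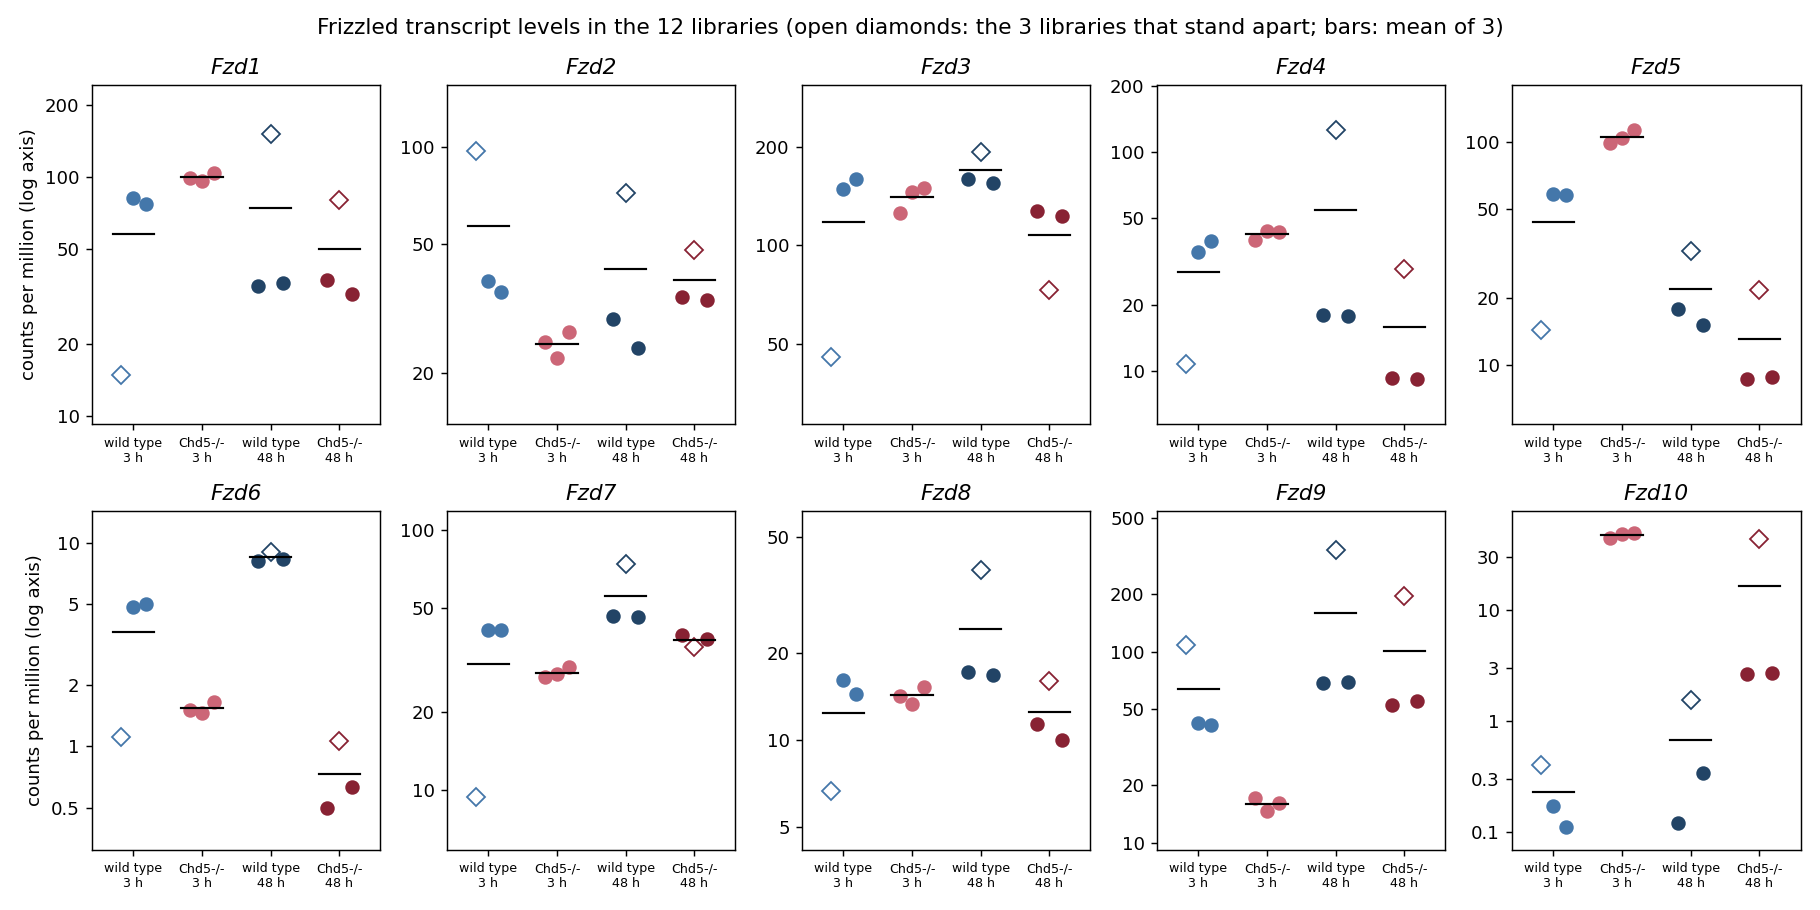
Each panel gives 1 Frizzled gene in CPM (reads scaled to library total) on a log axis for the 4 groups, with 1 point a library, open diamonds for the 3 libraries that stand apart, and a bar at the mean of 3. Fzd10 lies from 44.4 to 49.0 CPM in Chd5-/- at 3 h and under 0.41 CPM in wild type, and Fzd6 lies under 1.7 CPM in all 6 libraries labelled Chd5-/-.

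At 48 h, 1 of the 10 receptors passed over 12 libraries, and it was a different one from 3 h. Fzd6 fell in the libraries labelled Chd5-/-, beside 2.74% of tested genes, 1.53% higher and 1.21% lower. Over 12 libraries, 9 of the 10 receptors had a negative log2 fold change, and only Fzd10 was positive. The median was -0.655 over the 10 receptors and -0.02 over all genes, whose share of negative values was not counted. The signs were not stable. Fzd2 was positive too in the 9 libraries, and with 1 library left out Fzd1, Fzd2 and Fzd9 reached 0.49, 0.53 and 0.55. Fzd3, Fzd6, Fzd7 and Fzd8 were lower in each Chd5-/- library than in each wild-type library, and Fzd10 was higher. Groups of 3 that do not overlap were found for 5 of the 10 receptors and for 23.2% of all tested genes.

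Fzd6, a polarity receptor that patterns hair follicles in the mouse and acts with Fzd3 in neural tube closure, lies at chr15:39006034-39038188 (plus strand). It was at 8.18, 9.04 and 8.41 CPM in wild type at 48 h, against 0.495, 1.07 and 0.631 CPM in the libraries labelled Chd5-/-. The groups stood well apart, and replicate 2 was close to its group in wild type. Summed over 3 libraries, 34 reads in Chd5-/- stood against 416 in wild type. The log2 fold change was -3.54 ± 0.54 (edgeR, adjusted p = 0.00618), with leave-one-out values from -3.91 to -3.31, and -3.85 ± 0.21 in the 9 libraries. The block gave -3.58 ± 0.50 (adjusted p = 0.0179).

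At 3 h Fzd6 was at 1.11, 4.84 and 4.99 CPM in wild type, against 1.51, 1.45 and 1.65 CPM in the libraries labelled Chd5-/-. Wild-type replicate 1 lay below all 3 Chd5-/- libraries, and replicates 2 and 3 lay above them. The log2 fold change of -1.26 ± 0.49 did not pass over 12 libraries (adjusted p = 0.157). Without wild-type replicate 1 at 3 h alone it was -1.67 ± 0.27 and passed (adjusted p = 0.00505), as did 9.78% of genes. The 2 annotated protein-coding transcripts Fzd6-201 and Fzd6-202 took 90.4% and 7.86% of the gene's reads over all libraries.

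Fzd3, the sequence partner of Fzd6, guides axons of the internal capsule in the mouse forebrain. It was at 45.4, 148 and 159 CPM in wild type, against 126, 145 and 150 CPM in the libraries labelled Chd5-/- at 3 h. At 48 h it was at 160, 193 and 155 CPM in wild type, against 128, 72.7 and 123 CPM in the libraries labelled Chd5-/-. The groups overlapped at 3 h and did not at 48 h. The difference was 0.25 ± 0.40 at 3 h and -0.65 ± 0.40 at 48 h over 12 libraries (adjusted p = 0.731 and 0.691). In the 9 libraries it was -0.13 ± 0.06 (adjusted p = 0.0956, not passed) and -0.32 ± 0.07 (adjusted p = 0.00229).

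Fzd5, a receptor needed for placental vessels and eye development in the mouse, is at chr1:64730558-64737751 (minus strand). It was at 14.4, 58.5 and 58.1 CPM in wild type, against 98.9, 104 and 113 CPM in the libraries labelled Chd5-/- at 3 h. All 3 of the latter were higher than all wild-type libraries. The log2 fold change of 1.27 ± 0.53 did not pass over 12 libraries (adjusted p = 0.183) and was 0.86 ± 0.06 in the 9 libraries (adjusted p = 5.73e-08).

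At 48 h Fzd5 lay the other way round. Wild type was at 17.8, 32.4 and 15.1 CPM and the libraries labelled Chd5-/- at 8.67, 21.6 and 8.77 CPM. The Chd5-/- library was lower at each of the 3 replicate numbers, but replicate 2 was high in both genotypes and the groups overlapped. The difference was -0.74 ± 0.53 over 12 libraries (adjusted p = 0.780) and -0.90 ± 0.12 in the 9 libraries (adjusted p = 5.00e-05). The interaction was -2.01 ± 0.75 over 12 libraries, at an unadjusted p of 0.0221 and an adjusted p that did not pass, and -1.75 ± 0.13 in the 9 libraries (adjusted p = 4.29e-07).

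Fzd8, which acts with Fzd5 in mouse retinal development, was at 6.68, 16.1 and 14.4 CPM in wild type, against 14.2, 13.3 and 15.3 CPM in the libraries labelled Chd5-/- at 3 h. At 48 h it was at 17.2, 38.6 and 16.8 CPM and at 11.3, 16 and 9.97 CPM. At 3 h the groups overlapped, and in the 9 libraries the difference was -0.09 ± 0.09 (adjusted p = 0.405, 95% interval -0.27 to 0.08). At 48 h every Chd5-/- library was lower, with -0.96 ± 0.40 over 12 libraries (adjusted p = 0.367) and -0.66 ± 0.10 in the 9 libraries (adjusted p = 0.000161).

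The members of the trio Fzd1, Fzd2 and Fzd7 were not all on the same side of 0. Fzd1 and Fzd2 act together in palate closure in the mouse, and Fzd7 is known as a receptor of intestinal stem cells. At 3 h Fzd1 was at 14.8, 82.1 and 77.3 CPM in wild type, against 99.3, 96.2 and 104 CPM in the libraries labelled Chd5-/-, all of them higher. Fzd2 was at 96.8, 38.4 and 35.7 CPM and at 24.9, 22.4 and 26.8 CPM, all of the Chd5-/- libraries lower. Fzd7 was at 9.42, 41.5 and 41.1 CPM and at 27.2, 27.8 and 29.9 CPM, with wild-type replicate 1 below and the other 2 above. No member of the trio passed over 12 libraries (adjusted p = 0.525 for Fzd1, 0.159 for Fzd2 and 0.893 for Fzd7). In the 9 libraries Fzd1 was 0.33 ± 0.05 higher, Fzd2 was at -0.58 ± 0.09 and Fzd7 at -0.54 ± 0.05, and all 3 passed.

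At 48 h Fzd1 was at 35.1, 152 and 36.0 CPM in wild type, against 37.0, 80.1 and 32.4 CPM in the libraries labelled Chd5-/-, which overlap. It was the single receptor that did not pass in the 9 libraries at that time (-0.02 ± 0.07, adjusted p = 0.837, 95% interval -0.16 to 0.12). Fzd2 was at 29.5, 72.2 and 24 CPM and at 34.4, 47.9 and 33.8 CPM, with its sign turning from -0.11 ± 0.46 over 12 libraries to 0.37 ± 0.10 in the 9 libraries. Fzd7 was at 46.7, 74.3 and 46.3 CPM and at 39.6, 35.4 and 38.0 CPM, every Chd5-/- library lower, with -0.57 ± 0.44 over 12 libraries (adjusted p = 0.821) and -0.25 ± 0.06 in the 9 libraries.

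Fzd4, the receptor of the non-Wnt ligand Norrin in retinal vessels, was at 10.7, 35.1 and 39.1 CPM in wild type, against 39.6, 43.8 and 43.1 CPM in the libraries labelled Chd5-/- at 3 h. At 48 h it was at 18, 127 and 17.8 CPM and at 9.29, 29.3 and 9.15 CPM. Its Chd5-/- libraries were narrowly higher at 3 h, and at 48 h they were lower at each replicate number, though the groups overlapped through replicate 2. Neither difference passed over 12 libraries (adjusted p = 0.685 and 0.436), and in the 9 libraries they were 0.19 ± 0.06 (adjusted p = 0.0240) and -0.94 ± 0.10 (adjusted p = 4.85e-06). Endothelial markers were low in every library, at a summed level of 0.968 to 11.1 CPM over 7 genes.

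Smo, the remaining receptor of the class, which transduces Hedgehog and not Wnt signals, was at 107 to 144 CPM in wild type, against 128 to 137 CPM in the libraries labelled Chd5-/- at 3 h. At 48 h it was at 144 to 220 and 177 to 187 CPM. Both pairs of groups overlapped, and the difference over 12 libraries was 0.02 ± 0.22 at 3 h and 0.09 ± 0.22 at 48 h (adjusted p = 0.960 and 1.0). In the 9 libraries it was -0.10 ± 0.04 and 0.34 ± 0.04, and both passed.

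In the 9 libraries the spread within groups was small, and about as many genes passed as did not, so counts there are read against a high background. At 3 h 8 of the 10 receptors passed, 4 higher (Fzd1, Fzd4, Fzd5 and Fzd10) and 4 lower (Fzd2, Fzd6, Fzd7 and Fzd9), beside 52.5% of 16489 genes, 27.2% higher and 25.3% lower. At 48 h 9 passed, 2 higher (Fzd2 and Fzd10) and 7 lower, beside 47.2% of genes, 25.6% higher and 21.6% lower. The sizes differ widely. Apart from Fzd10, the values at 3 h lay between -1.67 and 0.86 on the log2 scale, and those at 48 h between -3.85 and 0.37.

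**Figure D3:**
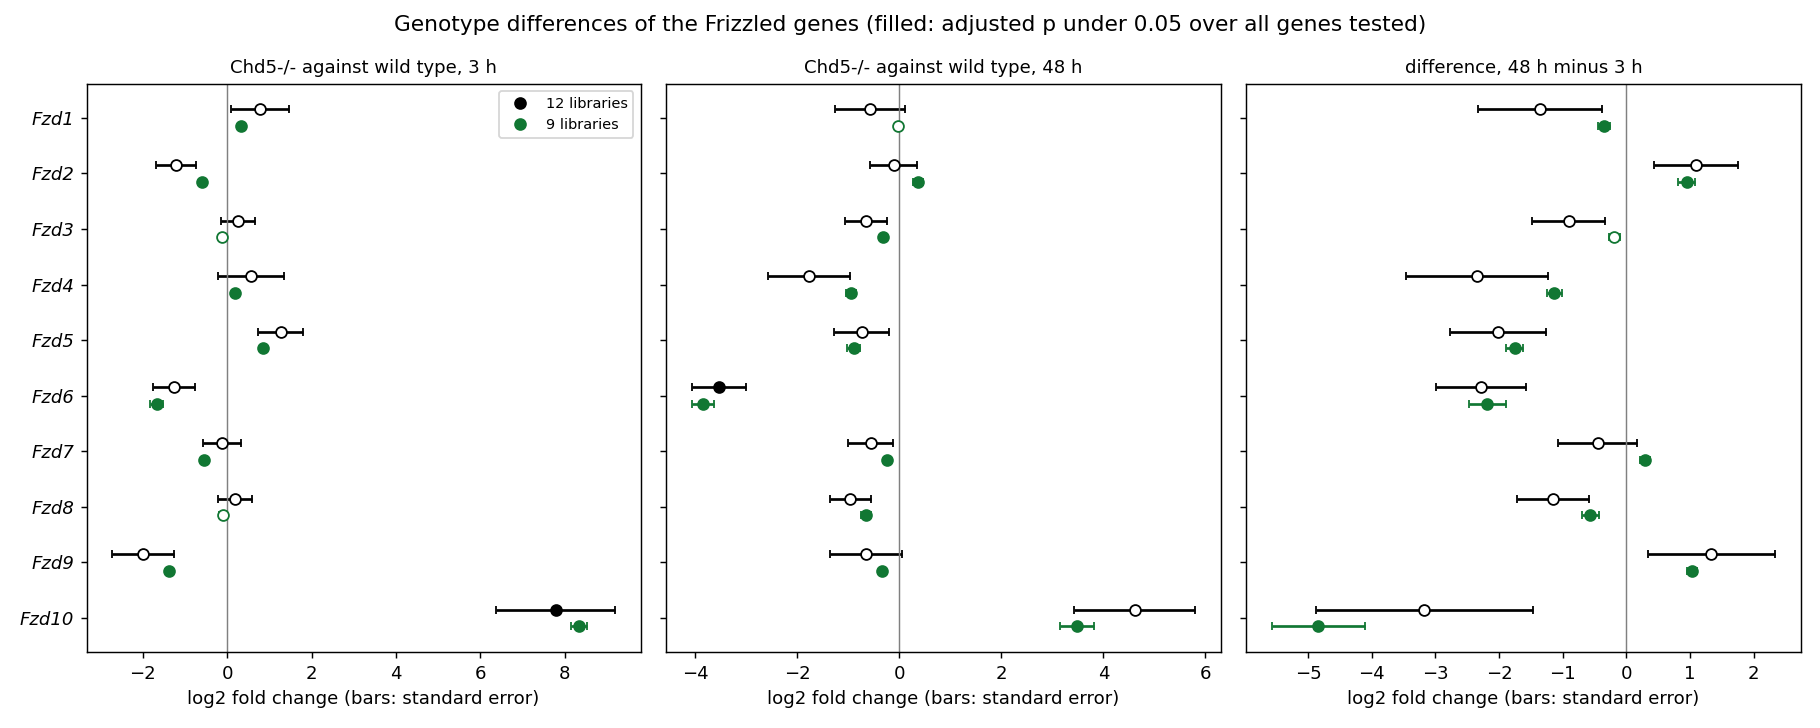
Points give the log2 fold change of each Frizzled gene with a standard error derived from the F statistic of the test. Panels show libraries labelled Chd5-/- against wild type at 3 h, at 48 h, and the difference between the 2. Values are over 12 libraries (black) and 9 libraries (green), filled where the adjusted p is under 0.05. Fzd10 at 3 h (7.78) and Fzd6 at 48 h (-3.54) are the filled black points, and the error bars shrink in the 9 libraries.

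From 3 h to 48 h, no receptor passed in wild type over 12 libraries, where 22.9% of tested genes did, by edgeR's quasi-likelihood test. Fzd6 and Fzd8 (2 of the 10) had an unadjusted p under 0.05, beside 6146 of the 16043 genes tested. DESeq2 called 1 receptor, Fzd6 (1.17 ± 0.47, adjusted p = 0.0430), beside 31.6% of genes, and limma-voom 0, beside 20.9%. Fzd6, Fzd7 and Fzd8 were higher in each library at 48 h than in each at 3 h, and groups did not overlap for 37.7% of genes. Without wild-type replicate 1 at 3 h, Fzd5 passed (-1.45 ± 0.43, adjusted p = 0.0306), as did 32.4% of genes.

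In the libraries labelled Chd5-/-, 2 receptors passed over time, beside 22.1% of all genes. Fzd5 fell by 3.02 ± 0.57 on the log2 scale (edgeR, adjusted p = 0.00480), from the 98.9 to 113 CPM of the 3 h libraries to the 8.67 to 21.6 CPM of the 48 h libraries. Fzd9 rose by 2.65 ± 0.75 (adjusted p = 0.0286), and its lowest library at 48 h, 52.6 CPM, was above its highest at 3 h, 17.2 CPM. The Fzd9 call was lost when any 1 of the 3 h Chd5-/- libraries or replicate 2 at 48 h was left out (adjusted p = 0.0905 to 0.0999), and without the last the value was 1.73. With the replicate block it was lost too (2.34 ± 0.75, adjusted p = 0.0818), where 11.9% of genes passed. Same-numbered Chd5-/- libraries of the 2 times did not deviate together (r = 0.015, -0.008 and -0.0005), so that block is no pairing seen in the data. Fzd10 was at -1.54 ± 1.00 over 12 libraries and did not pass (adjusted p = 0.299). Leaving out 1 library in turn moved it between -4.15 and -1.04. It passed without replicate 2 at 48 h (-4.15 ± 0.77, adjusted p = 0.00511, beside 25.1% of genes) and by limma-voom (-2.81 ± 0.83, adjusted p = 0.0337, beside 22.8%). Fitting only the 2 groups compared called 5 receptors, beside 53.4% of genes. Levels at 3 h and 48 h did not overlap for 8 of the 10 receptors, beside 64.6% of genes.

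Without the 3 libraries that stand apart, all 10 receptors passed over time in Chd5-/- (79.0% of genes did) and 6 in wild type (76.0%). Fzd5 was lower at 48 h by both labels, at -1.88 ± 0.08 in wild type and -3.63 ± 0.09 in Chd5-/-. Fzd1 and Fzd4 were also lower in both, at -1.21 ± 0.06 and -1.10 ± 0.08 in wild type and -1.56 ± 0.06 and -2.23 ± 0.08 in Chd5-/-. Fzd9 was higher in both, at 0.67 ± 0.05 and 1.70 ± 0.06. Fzd10 was at -4.17 ± 0.11 in Chd5-/- and at 0.67 ± 0.64 in wild type, where it did not pass. Among the receptors that passed in both labels, Fzd2 and Fzd6 had opposite signs, with Fzd6 at 0.71 ± 0.15 in wild type and -1.48 ± 0.25 in Chd5-/-.

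No receptor passed for the genotype by time interaction over 12 libraries by edgeR, limma-voom or DESeq2, where these called 0.231%, 0.243% and 2.51% of genes. Unadjusted edgeR p-values under 0.05 were found for 2, Fzd5 and Fzd6, beside 1610 of the 16043 genes tested. DESeq2 gave no adjusted p for Fzd4 and Fzd10. In the 9 libraries 9 of the 10 passed, all but Fzd3, beside 40.4% of genes. The largest of these in size were Fzd10 (-4.84 ± 0.73), Fzd6 (-2.18 ± 0.29) and Fzd5 (-1.75 ± 0.13). Without wild-type replicate 1 at 3 h alone, Fzd6 passed (-1.86 ± 0.38, adjusted p = 0.0474), beside 1.85% of genes.

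The 3 libraries that stand apart differed from their groups in the receptors as well. In wild-type replicate 1 at 3 h, Fzd2, Fzd9 and Fzd10 had 2.61, 2.59 and 2.88 times the CPM of the mean of replicates 2 and 3, the last on 4 reads. The other 7 receptors had 0.186 to 0.439 times that mean. The 3 that were high have the shortest transcripts of the family, at 3663, 2293 and 3250 bases, and those of the other 7 are 4197 to 12734 bases long. Over all genes, the read-weighted transcript length in that library was 2563 bases, against 3803 and 3835 in the other 2. The part of transcript length in these receptor levels was not tested. On the TPM scale Fzd9 was at 10.6 in replicate 1 and at 11.2 and 10.9 in the other 2, while the coding transcript of Fzd3, the longest, was at 0.739 against 7.58 and 8.24.

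In replicate 2 at 48 h, 8 of the 10 receptors were higher than the mean of replicates 1 and 3 in both genotypes. Fzd4 had 7.07 times that mean in wild type and 3.18 times in Chd5-/-, Fzd1 had 4.28 and 2.31 times, and Fzd9 4.93 and 3.64 times. Fzd3 and Fzd7 were at 1.23 and 1.6 times in wild type but at 0.580 and 0.912 times in Chd5-/-. Fzd6 in wild type, at 1.09 times, differed least.

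**Figure D4:**
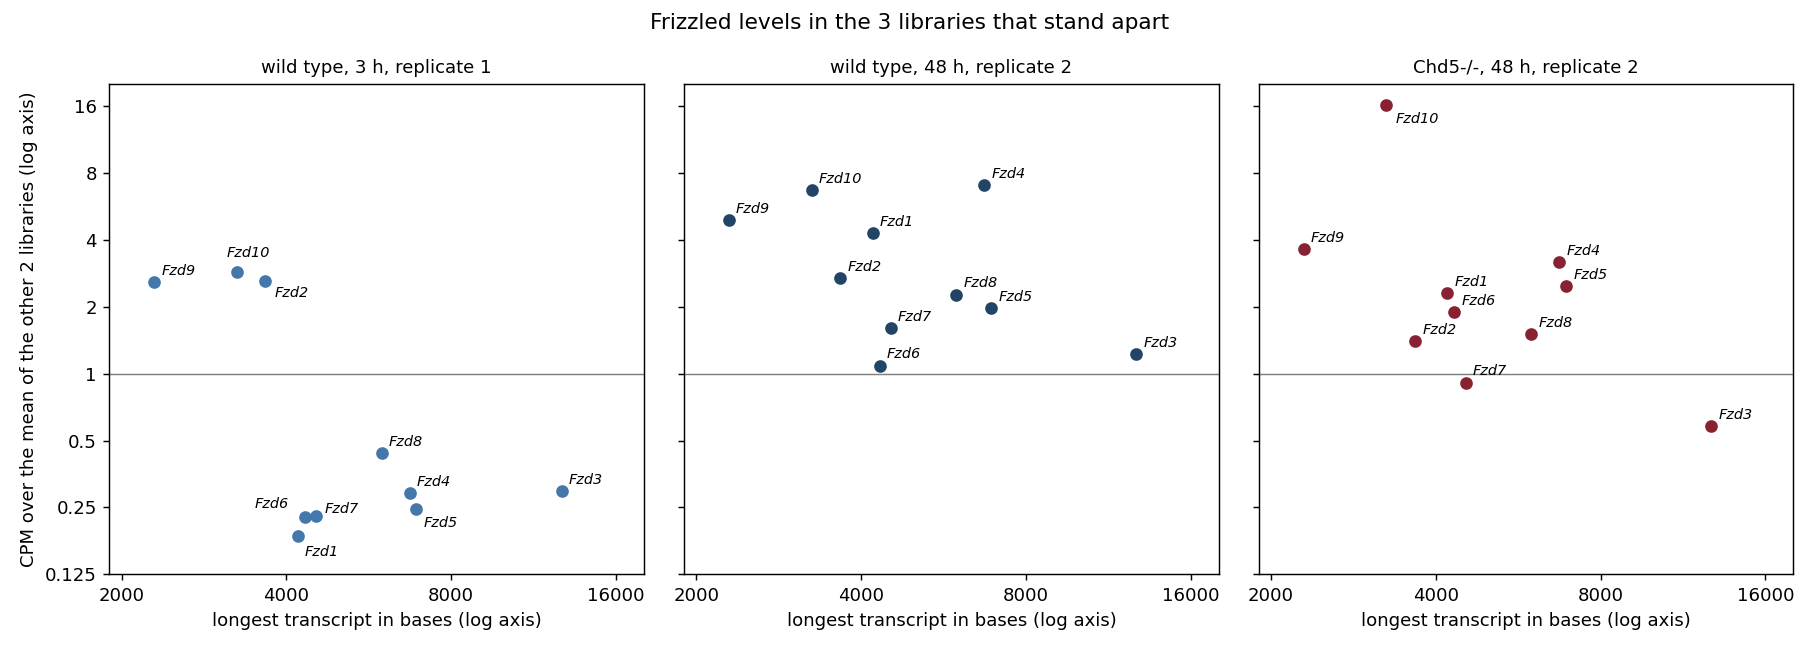
Each point is 1 Frizzled gene in 1 of the 3 libraries that stand apart, with its CPM divided by the mean of the other 2 libraries of its group (log axis) against the length of its longest transcript in bases (log axis). In wild-type replicate 1 at 3 h the 3 shortest transcripts lie at 2.59 to 2.88 and the other 7 under 0.44, while at 48 h most receptors of replicate 2 lie above 1.

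The genes whose pattern was most like that of Fzd10 were chosen from 14123 genes by the smallest root mean square difference in centred log2 CPM over the 12 libraries. They were Chl1, a neural cell adhesion gene (0.853), Sostdc1, which encodes a secreted antagonist of Wnt and BMP signals (0.854), and Gdf15, a stress-induced growth factor gene (0.976). Chl1 had means of 4.46 CPM in wild type and 201 CPM in Chd5-/- at 3 h, and of 9.04 and 84.1 CPM at 48 h. The nearest other Frizzled was 2.77 away. For Fzd6 they were Prdm1, a transcriptional repressor gene (0.380), the collagen gene Col28a1 (0.380) and Igf2bp3, which encodes an RNA-binding protein (0.518). Col28a1 had means of 94.1 and 41.2 CPM at 3 h and of 139 and 24.6 CPM at 48 h. The nearest other Frizzled was 1.05 away.

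The other genes of the pathway were read by role. The median log2 fold change of a list over 12 libraries lay between -0.38 (TCF/LEF factors and targets) and 0.36 (transducers) at 3 h and between -0.35 (antagonists) and -0.04 (R-spondins, Lgr receptors and ligases) at 48 h, beside -0.02 over all genes at both times. Many more passed in the 9 libraries, as over all genes (52.5% at 3 h and 47.2% at 48 h). At 3 h, 5 of 11 ligands tested were higher and 4 lower, with 1 and 1 of 9 co-receptors, 2 and 3 of 5 turnover genes, 2 and 5 of 11 antagonists, 7 and 4 of 15 transducers, 5 and 3 of 13 polarity genes, and 3 and 5 of 9 factors and targets. At 48 h, 1 ligand was higher and 3 lower, with 3 and 3 co-receptors, 3 and 2 turnover genes, 5 and 4 antagonists, 4 and 9 transducers, 4 and 5 polarity genes, and 4 and 3 factors and targets. The counts that follow are over 12 libraries. There 6.71% of all genes passed at 3 h, 3.24% higher and 3.48% lower. At 48 h 2.74% passed, 1.53% higher and 1.21% lower. An unadjusted p under 0.05 was found for 3784 genes at 3 h and 1840 at 48 h, of 16043 tested.

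Among 20 ligands, 9 were tested and none passed for genotype at either time over 12 libraries by edgeR, with 3 at 3 h and 0 at 48 h under an unadjusted p of 0.05. Wnt5a, the main ligand of the polarity branch, was at 18.5, 110 and 112 CPM in wild type, against 167, 169 and 173 CPM in the libraries labelled Chd5-/- at 3 h. At 48 h it was at 156, 149 and 158 CPM and at 85.8, 59.6 and 84.3 CPM. Its groups did not overlap at either time and were ordered in opposite ways, with 1.08 ± 0.50 (adjusted p = 0.217) at 3 h and -1.01 ± 0.50 (adjusted p = 0.501) at 48 h. In the 9 libraries these were 0.61 ± 0.03 and -0.87 ± 0.04, and both passed. Wnt7a was between 69.0 and 76.6 CPM in Chd5-/- and between 36.9 and 68.4 CPM in wild type at 3 h (0.61 ± 0.26, adjusted p = 0.188). Wnt3 was at most 4.40 CPM and Wnt6 at most 1.72 CPM in any library.

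Of the 9 co-receptors and partners, all were tested, and none passed at 3 h by edgeR (0 at an unadjusted p under 0.05). At 48 h, beside 1.53% of all genes, 1 rose. This was Ror1, a receptor tyrosine kinase that binds Wnt5a, at 0.244, 0 and 0.227 CPM in wild type and 1.86, 2.74 and 2.27 CPM in Chd5-/- at 48 h (3.77 ± 0.76, adjusted p = 0.0249). Lrp5, which works with Frizzleds in beta-catenin signalling, was at 96.8, 322 and 84.2 CPM and at 73.1, 140 and 68.1 CPM at 48 h, high in replicate 2 as most receptors were, and it did not pass (-0.84 ± 0.55). Tspan12, the partner of Fzd4 in Norrin signalling, gave 0.86 ± 0.59 at 3 h, and Ptk7 gave 0.48 ± 0.50. Of the 9 genes for R-spondins, their Lgr receptors and the ligases that remove Frizzleds from the surface, 5 were tested and none passed for genotype by edgeR, with 1 at each time under an unadjusted p of 0.05. Rnf43, such a ligase, gave 4.45 ± 1.27 at 3 h (adjusted p = 0.0643), from at most 0.203 CPM in wild type to 0.911 to 1.64 CPM. The ligase gene Znrf3 gave 0.05 ± 0.60 at 3 h, but -0.45 ± 0.06 in the 9 libraries, where it passed. Rspo3 was at or under 1.12 CPM throughout. Lgr5 was at 0.912, 10.8 and 8.49 CPM in wild type and 16.5, 18.4 and 18.4 CPM in Chd5-/- at 3 h.

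Of the 18 extracellular antagonists, 10 were tested. At 3 h Sostdc1 rose and Tpbg fell, and at 48 h Sostdc1 and Sfrp1 rose and Tpbg fell. Over all genes, 6.71% passed at 3 h and 2.74% at 48 h. Tpbg, which encodes a membrane protein that inhibits Wnt signalling, was at 12.5, 20.95 and 22.3 CPM in wild type and 0.95, 1.07 and 0.740 CPM in Chd5-/- at 3 h (-4.33 ± 0.34, adjusted p = 6.37e-05). At 48 h it was at 18.4, 25.4 and 18.6 CPM and 0.124, 0.200 and 0.126 CPM (-7.05 ± 0.41, adjusted p = 4.56e-05). Its groups were far apart at both times, and none of the 3 libraries that stand apart broke the pattern. Sostdc1 went from at most 0.0555 CPM to between 31.5 and 34.7 CPM at 3 h (adjusted p = 0.000410), on 1 wild-type library with reads, and from 0.183 to 1.08 CPM up to 5.24 to 20.8 CPM at 48 h (4.44 ± 0.76, adjusted p = 0.0110). Sfrp1, a secreted protein with a Frizzled-like cysteine-rich domain, was at 0.202 to 0.489 CPM and 5.21 to 7.62 CPM at 48 h (4.21 ± 0.62, adjusted p = 0.00552). Wif1, a secreted Wnt inhibitor, gave 2.18 ± 0.66 at 48 h (adjusted p = 0.144).

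Inside the cell, all 15 transducers were tested. At 48 h none passed (2 had an unadjusted p under 0.05 there), and at 3 h 2 rose, beside 3.24% of all genes. Apc2, a neural relative of the beta-catenin scaffold Apc, was at 1.32, 1.82 and 2.83 CPM in wild type and 11.7, 11.4 and 14.1 CPM in Chd5-/- (2.62 ± 0.39, adjusted p = 0.00269). Frat2, which binds the kinase GSK3, was at 5.17, 3.82 and 6.05 CPM and 18.4, 19.8 and 18.8 CPM (1.93 ± 0.36, adjusted p = 0.00919). The Dishevelled gene Dvl1, whose product docks at the site printed above, was at 80.5 to 98.8 CPM and 88.9 to 90.2 CPM (-0.04 ± 0.23), and Btrc gave 0.67 ± 0.26 (adjusted p = 0.160). Of 14 planar polarity genes, 13 were tested. Vangl2, a core polarity gene, rose at 3 h from 33.0, 60.6 and 61.3 CPM to 123, 119 and 126 CPM (1.25 ± 0.27, adjusted p = 0.0195), and no polarity gene passed at 48 h (3 had an unadjusted p under 0.05). Celsr3 gave -1.60 ± 0.57 at 3 h and -2.42 ± 0.58 at 48 h (adjusted p = 0.128 and 0.0558), Ankrd6 gave 2.02 ± 0.59 at 3 h (adjusted p = 0.0699) and Prickle1 gave 1.12 ± 0.33 at 48 h (adjusted p = 0.131).

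Of the 10 TCF/LEF factors and target genes, 9 were tested, and 3 fell at 3 h, beside 3.48% of all genes. None passed at 48 h (2 had an unadjusted p under 0.05). Lef1, a transcription factor that works with beta-catenin, was at 4.46, 9.62 and 9.99 CPM in wild type and 0.615, 1.2 and 1.14 CPM in Chd5-/- (-3.02 ± 0.46, adjusted p = 0.00310). Nkd2 and Nkd1, feedback inhibitors that bind Dishevelled, were at 20.7 to 22.8 and 41.1 to 63.5 CPM in wild type and at 5.18 to 6.43 and 14.7 to 16.6 CPM in Chd5-/-. Their log2 fold changes were -1.88 ± 0.43 (adjusted p = 0.0257) and -1.62 ± 0.39 (adjusted p = 0.0322). Tcf7l2 lay on the other side, at 1.28 ± 0.40, and did not pass (adjusted p = 0.0868). At 48 h the 4 differences were -0.73 ± 0.43 for Lef1, -0.28 ± 0.41 for Nkd2, -0.95 ± 0.38 for Nkd1 and 0.91 ± 0.40 for Tcf7l2. Nkd2 at 48 h turned sign and passed in the 9 libraries, at 0.47 ± 0.10 (adjusted p = 0.00246).

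**Figure D5:**
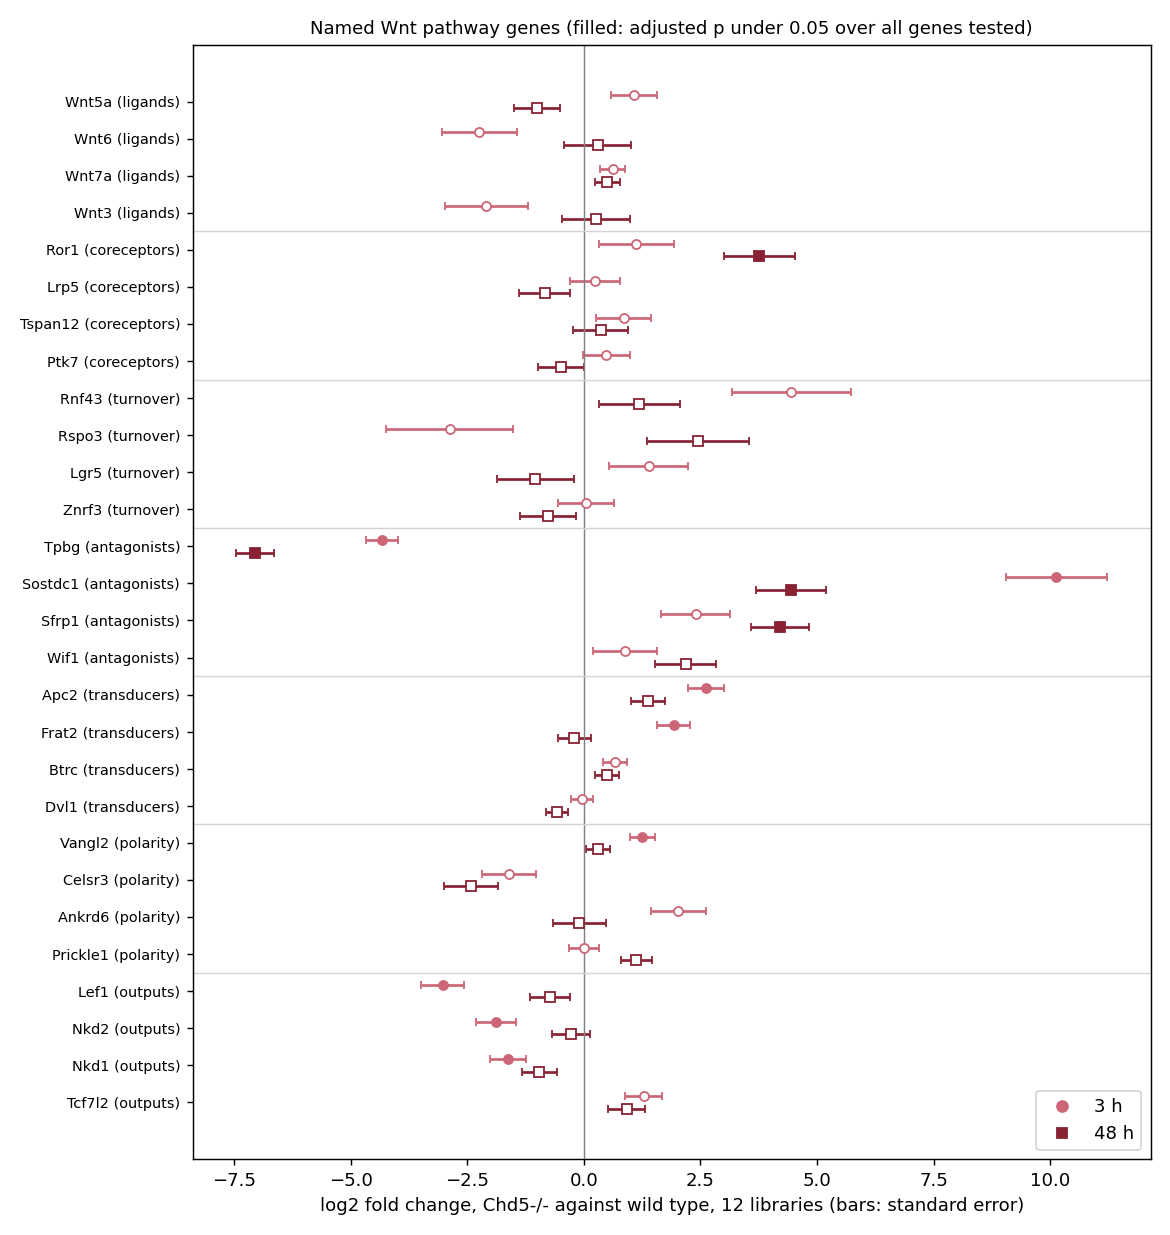
Points give the log2 fold change over 12 libraries, with a standard error derived from the F statistic, for the named genes of 7 Wnt pathway lists. They compare libraries labelled Chd5-/- with wild type at 3 h (circles) and 48 h (squares), filled where the adjusted p is under 0.05. Sostdc1 and Tpbg are filled at both times on opposite sides of 0, and Lef1, Nkd2 and Nkd1 are filled and lower at 3 h.

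Of the 10 receptors, 6 (Fzd1, Fzd4, Fzd5, Fzd7, Fzd9 and Fzd10) matched the table of RefSeq promoters (GRCm38.p6, from 250 bases before to 50 after the start). The TCF/LEF core CTTTGA, on either strand, was found in 1 of them (Fzd1), and 16% of all 32851 promoters hold it. The GC box GGGCGG, on either strand, was found in 5, all but Fzd1, and in 35.7% of all promoters. The windows of Fzd9 and Fzd10 hold 67 and 0 bases upstream of both the RefSeq and the GENCODE start, and their GC boxes lie inside the annotated transcript. Boxes upstream of both starts were found in Fzd4 (7), Fzd5 (9) and Fzd7 (6). The ratio of observed to expected CpG was 0.73 to 1.18 in the 6, highest in Fzd9 and next in Fzd10, whose windows are mostly or wholly transcribed sequence, beside a median of 0.38 over all promoters.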

How the data were processed

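The submitters' processing notes name Salmon, with no settings or index and a version not given in the sources used here. Per the file headers, the authors deposited estimated counts (NumReads) and TPM for each transcript of TruSeq Stranded mRNA libraries. Transcripts were matched to GENCODE M21 (GRCm38), and 521 unmatched ones, with 0.135% to 0.181% of reads, were left out. Estimated counts were summed per gene and rounded.

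Genes were tested with edgeR 4.0.16 (R 4.3.3) by two-sided quasi-likelihood F tests, with filterByExpr (minimum count 10, minimum total 15), TMM scaling, all 12 libraries and 1 mean per group. P-values were adjusted by Benjamini-Hochberg over all genes tested and called under 0.05. CPM uses TMM-scaled library sizes. DESeq2 1.42.0, limma-voom (limma 3.58.1), other filters and scalings, a length offset, a replicate block and libraries left out were alternatives. The model was also run on simulated counts drawn independently for each gene and library. Those held no library that stands apart, so that run is no check on calls that hinge on such libraries.

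Same-numbered libraries of the 2 genotypes deviated together at 48 h (r = 0.56, 0.74 and 0.56 across genes) but not at 3 h (0.15, 0.08 and 0.05), so the block was taken as a pairing at 48 h, from the data and not from the labels. Libraries 1 and 3 correlated as much across numbers (0.60 and 0.58), so replicate 2 alone is set apart. Between the 2 times of a genotype, same-numbered libraries did not deviate together (r = -0.01 to 0.02). No 2 libraries of a group agreed within counting noise (chi-square per gene 1.83 or more).

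The receptors, gene lists, alternatives and the set of 3 libraries were chosen with earlier results of these data known. Pathway genes were named by smallest p in either genotype contrast or the interaction, up to 4 a list. Intervals cover counting error only where they are of read counts. Intervals of fold changes use the standard error derived from F and a normal quantile. They are therefore narrower than intervals from the degrees of freedom of the test would be.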

Additional observations from a re-analysis of the deposited data

Results flagged for a closer look

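Fzd6 moved in opposite directions with time in the 2 genotypes, which is what drew attention to it. Every wild-type library at 48 h (8.18 to 9.04 CPM) was above every one at 3 h (1.11 to 4.99 CPM), and every Chd5-/- library at 48 h (0.495 to 1.07 CPM) was below every one at 3 h (1.45 to 1.65 CPM). The difference between the 2 time effects was -2.28 ± 0.70 on the log2 scale and did not pass over 12 libraries (edgeR, adjusted p = 0.283). Without wild-type replicate 1 at 3 h it was -1.86 ± 0.38 (adjusted p = 0.0474), and without the 3 libraries that stand apart it was -2.18 ± 0.29 (adjusted p = 5.33e-05).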

How the results depend on the processing

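Without the 3 libraries that stand apart, the receptors called numbered 8 and 9 for genotype at 3 h and 48 h, 6 and 10 for time in wild type and Chd5-/-, and 9 for the interaction, where 1, 1, 0, 2 and 0 were called over 12 libraries. The replicate block gave 2, 2 and 1 for genotype at 3 h, at 48 h and for time in Chd5-/-. No filter gave 2 at 48 h, DESeq2 gave 1 for time in wild type, and fitting only the groups compared gave 5 for time in Chd5-/-, beside 53.4% of genes. At 3 h the 1 receptor that DESeq2 called was Fzd9 and not Fzd10. DESeq2 gave Fzd4 and Fzd10 no adjusted p in any contrast, so it is no check on the Fzd10 result. Leaving out 1 library gave 1 to 2, 1 to 1, 0 to 1, 1 to 3 and 0 to 1. The higher counts at 3 h, over time in wild type and for the interaction came from leaving out wild-type replicate 1 at 3 h.

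Signs turned in the 9 libraries for Fzd1 (-1.21), Fzd3 (-0.01) and Fzd4 (-1.10) over time in wild type, Fzd2 at 48 h (0.37), Fzd3 (-0.13) and Fzd8 (-0.09) at 3 h, and the interaction of Fzd7 (0.30). Limma-voom and the block turned Fzd2 at 48 h (0.05 and 0.04) and Fzd7 at 3 h (0.11 and 0.12). With 1 library left out, values that turned sign ranged from -1.10 to 0.49 (Fzd1 at 48 h), -0.71 to 0.69 (Fzd1 over time in wild type), -0.39 to 0.53 (Fzd2 at 48 h), -1.08 to 0.15 (Fzd2 over time in wild type), -0.13 to 0.54 (Fzd3 at 3 h), -0.66 to 1.35 (Fzd4 over time in wild type), -0.54 to 0.16 (Fzd7 at 3 h), -0.10 to 0.43 (Fzd8 at 3 h) and -1.57 to 0.55 (Fzd9 at 48 h). None of these was called over 12 libraries, and the cause was not tested. Beyond the 9 libraries and single left-out libraries, 365 of 379 single-receptor values kept direction and side of the threshold.

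The pairing by replicate number added the call of Fzd10 at 48 h (adjusted p = 0.00946) and, at 3 h, of Fzd9 (0.0140). It lost Fzd9 over time in Chd5-/- (0.0818) and changed no other receptor call. The data showed such a pairing at 48 h only, through replicate 2, so both changes for Fzd9 rest on no pairing seen in the data. Ranks by CPM per kb equalled those by TPM in 29 of 40 places. The fold of Fzd10 rests on 9 wild-type reads at 3 h and 31 at 48 h, and Fzd6 rests on 34 reads in Chd5-/- at 48 h.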
